A study of Rattus norvegicus with 48 samples.

Results

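Krt19, the keratin that marks bile duct cells and hepatic progenitor cells, was examined together with 9 other genes used as biliary or progenitor markers in rat liver lesions. The list was Krt19, Krt7, Krt8, Krt18, Cd24, Epcam, Sox9, Spp1, Prom1 and Cldn7. Of these 10 genes, 7 had a probe under their own symbol on the array, with 1 probe each, and all 7 were detected on enough arrays to be tested among 9273 genes. Krt18, Sox9 and Cldn7 had no probe of that name and were not analysed here.

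The 48 arrays measured total RNA from laser-dissected areas of frozen F-344 rat liver, 1 array per sample. Per the labels, male rats received 150 mg/kg of the carcinogen diethylnitrosamine by intraperitoneal injection and recovered for 2 weeks. They were then fed 0.02% 2-acetylaminofluorene, which blocks the division of normal hepatocytes, for 1 week, underwent partial hepatectomy, took the same diet for 1 more week and went back to basal diet. The groups were 20 nodules at 10 weeks, 4 adenomas and 5 early hepatocellular carcinomas (eHCC) at 10 months, 9 advanced hepatocellular carcinomas (aHCC) at 14 months, and 10 samples of control liver. Of the nodules, 10 carried a KRT19-positive title and 10 a KRT19-negative title. The treatment text is the same for all samples, controls included, so it does not say whether the control rats were treated, and neither their age nor the way KRT19 status was assigned is given. Lesions are not tied to animals in the labels. If some shared a rat, the p-values below are too small.

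Keratins are the intermediate filament proteins of epithelial cells, and normal rat hepatocytes make the pair Krt8 and Krt18 while bile duct cells add Krt7 and Krt19. After injury that keeps hepatocytes from dividing, small ductular or oval cells with biliary keratins, Epcam, Cd24 and Prom1 appear in rat liver, and KRT19 in human hepatocellular carcinoma is a known marker of poor outcome. Sox9 is a transcription factor of the duct lineage, Spp1 is osteopontin, a secreted matrix protein, and Cldn7 is a tight junction protein.

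All values are log2 of the deposited intensity, in which background was not subtracted, so the fold changes of dim genes are understated. A probe counted as detected where its detection p-value was under 0.05. Differences came from 1 linear model over all arrays (limma), with Benjamini-Hochberg adjustment over 13479 genes and unnamed probes, and 0.05 was the limit for the adjusted p. The number of detected probes ranged from 8323 to 9682 in controls, from 8380 to 10695 in nodules and from 8689 to 11434 in the later lesions. The mean of 10 hepatocyte markers was 13.55 to 13.85 in controls, 12.42 to 13.85 in nodules and 10.52 to 13.09 in the later lesions, so every sample carried strong hepatocyte signal. A sample of dissected tissue cannot separate more cells of a type from more RNA per cell.

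Before the groups were compared, Krt19 was read as a check on the nodule titles, and in part of the samples the titles went against it. Samples are numbered in their titles, and the nodules fall into numbers 1 to 10 (with controls 11 to 14) and 15 to 24 (with controls 25 to 27). Whether these ranges were separate experiments is not given. In the lower range, Krt19 was above 11.6 in all 5 nodules labelled KRT19-positive, at 13.15, 12.03, 12.01, 11.67 and 11.64, and the 5 labelled KRT19-negative had 7.69, 10.50, 8.51, 10.41 and 10.11. In the upper range the order was turned, with 8.42, 9.36, 7.70, 10.60 and 9.19 in the 5 nodules labelled KRT19-positive and 12.96, 12.15, 11.49, 12.96 and 12.56 in those labelled KRT19-negative. For that reason the nodules are described below as 1 set of 20 and by their measured Krt19, and directions by title are given only with this reservation.

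Cd24, Epcam and Krt8 moved most closely with Krt19 among the 7 genes, so the start regions of these genes are shown here. The regions run from 250 bases before to 50 bases after the annotated start, from RefSeq on the rat assembly GRCr8, and start regions were found for 7 of the 10 listed genes. They lie at chr7:135010290-135010589 on the minus strand for Krt8, at chr6:12649629-12649928 on the minus strand for Epcam and at chr20:48656227-48656526 on the plus strand for Cd24. Capitals mark matches, on either strand, to the TATA box TATAAA, the AP-1 element TGANTCA and the core TGACNNNGC of the antioxidant response element.
Krt8: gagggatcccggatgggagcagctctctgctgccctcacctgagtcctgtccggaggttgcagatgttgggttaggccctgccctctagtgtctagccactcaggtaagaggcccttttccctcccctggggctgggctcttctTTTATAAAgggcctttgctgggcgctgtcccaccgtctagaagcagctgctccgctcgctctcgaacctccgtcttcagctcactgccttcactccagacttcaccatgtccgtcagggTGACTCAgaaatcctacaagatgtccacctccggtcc
Epcam: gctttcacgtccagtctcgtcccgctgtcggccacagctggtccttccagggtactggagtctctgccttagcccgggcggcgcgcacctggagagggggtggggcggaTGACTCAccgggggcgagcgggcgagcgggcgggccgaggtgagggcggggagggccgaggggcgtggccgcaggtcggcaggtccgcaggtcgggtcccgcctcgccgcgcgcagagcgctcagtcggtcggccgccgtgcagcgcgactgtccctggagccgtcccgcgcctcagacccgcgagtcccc
Cd24: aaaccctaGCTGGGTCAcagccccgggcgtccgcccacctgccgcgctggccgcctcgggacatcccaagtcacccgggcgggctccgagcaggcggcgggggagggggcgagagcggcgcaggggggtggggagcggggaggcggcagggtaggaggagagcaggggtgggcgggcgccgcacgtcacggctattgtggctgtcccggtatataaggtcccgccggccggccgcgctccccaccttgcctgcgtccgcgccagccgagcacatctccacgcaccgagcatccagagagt
The Krt8 region held TATAAA with its first base at −104, overlapping a match on the other strand, and TGACTCA at 14 bases after the start. The Epcam region held TGACTCA at −141 and no TATA box, with 4 copies of the GC box GGGCGG between −175 and −98. The Cd24 region held the antioxidant core on the minus strand, GCTGGGTCA at −242, and 3 GC boxes. Over 33469 rat start regions of the same length, 14.2% held TATAAA, 7.33% TGANTCA, 12.1% TGACNNNGC and 33.1% GGGCGG on either strand. No element searched was present in all 3 regions, and a match of letters is a description only.

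Krt19 was higher in the nodules than in control liver and stayed high in every later group. Control liver had a log2 intensity of 7.83 ± 0.39 (SD, n = 10), with a lowest value of 7.38, a median of 7.78 and a highest of 8.76, and the probe was detected in 8 of 10 controls. The 20 nodules ran from 7.69 over a median of 11.04 to 13.15, and 16 of them lay above the highest control. The difference was 2.92 ± 0.61 (SE), or 7.58-fold, with an adjusted p of 0.000254. The 4 adenomas had 10.96, 13.04, 14.63 and 9.78, and the 5 eHCC had 11.48, 15.08, 12.84, 10.66 and 11.68. The 9 aHCC ran from 9.08 over a median of 11.91 to 13.59. None of these 18 later lesions overlapped with the controls, and Krt19 was 19.3-fold higher in adenomas (adjusted p = 0.000405), 22.9-fold in eHCC (adjusted p = 4.64e-05) and 14.0-fold in aHCC (adjusted p = 3.46e-05). Ordered by their means, the groups were control, nodules labelled positive (10.58 ± 1.81, SD, n = 10), nodules labelled negative (10.93 ± 1.83, SD, n = 10), aHCC (11.64 ± 1.69, SD, n = 9), adenoma (12.10 ± 2.16, SD, n = 4) and eHCC (12.35 ± 1.71, SD, n = 5). Beyond the step from control, neighbours in this order lay closer together than the SD of either group, and the aHCC minus nodules difference of 0.88 ± 0.63 (SE) did not pass (adjusted p = 0.311).

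Krt8, the type II keratin that hepatocytes themselves make, was bright in every sample and showed the tightest separation from control. Controls had 12.56 to 13.02, with a median of 12.82, and nodules had 13.21 to 14.88, with a median of 14.36. All 20 nodules and all 18 later lesions lay above the highest control. The difference was 1.45 ± 0.17 (SE) in nodules, or 2.73-fold (adjusted p = 4.96e-09), 1.32 ± 0.25 in adenomas, 1.43 ± 0.23 in eHCC and 1.39 ± 0.20 in aHCC (adjusted p = 9.29e-05, 5.08e-06 and 2.53e-07). Its means lay close together between stages, at 14.25 ± 0.48 (SD, n = 20) in nodules, 14.11 ± 0.26 (SD, n = 4) in adenomas, 14.23 ± 0.57 (SD, n = 5) in eHCC and 14.18 ± 0.52 (SD, n = 9) in aHCC.

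Krt7, the other duct keratin on the list, stayed near the detection limit. It was detected in 1 of 10 controls, 3 of 20 nodules, 0 of 4 adenomas, 1 of 5 eHCC and 5 of 9 aHCC. Controls had 6.87 to 7.46 and nodules 6.96 to 7.83, so the groups overlapped almost fully, and the difference of 0.08 ± 0.16 (SE) did not pass (adjusted p = 0.762). One eHCC, sample 39, had 9.91 while the other 4 had 7.10, 7.20, 7.16 and 7.23. In aHCC the values ran from 7.29 over a median of 7.40 to 8.16, a difference from control of 0.35 that did not pass (adjusted p = 0.155).

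**Figure D1:**
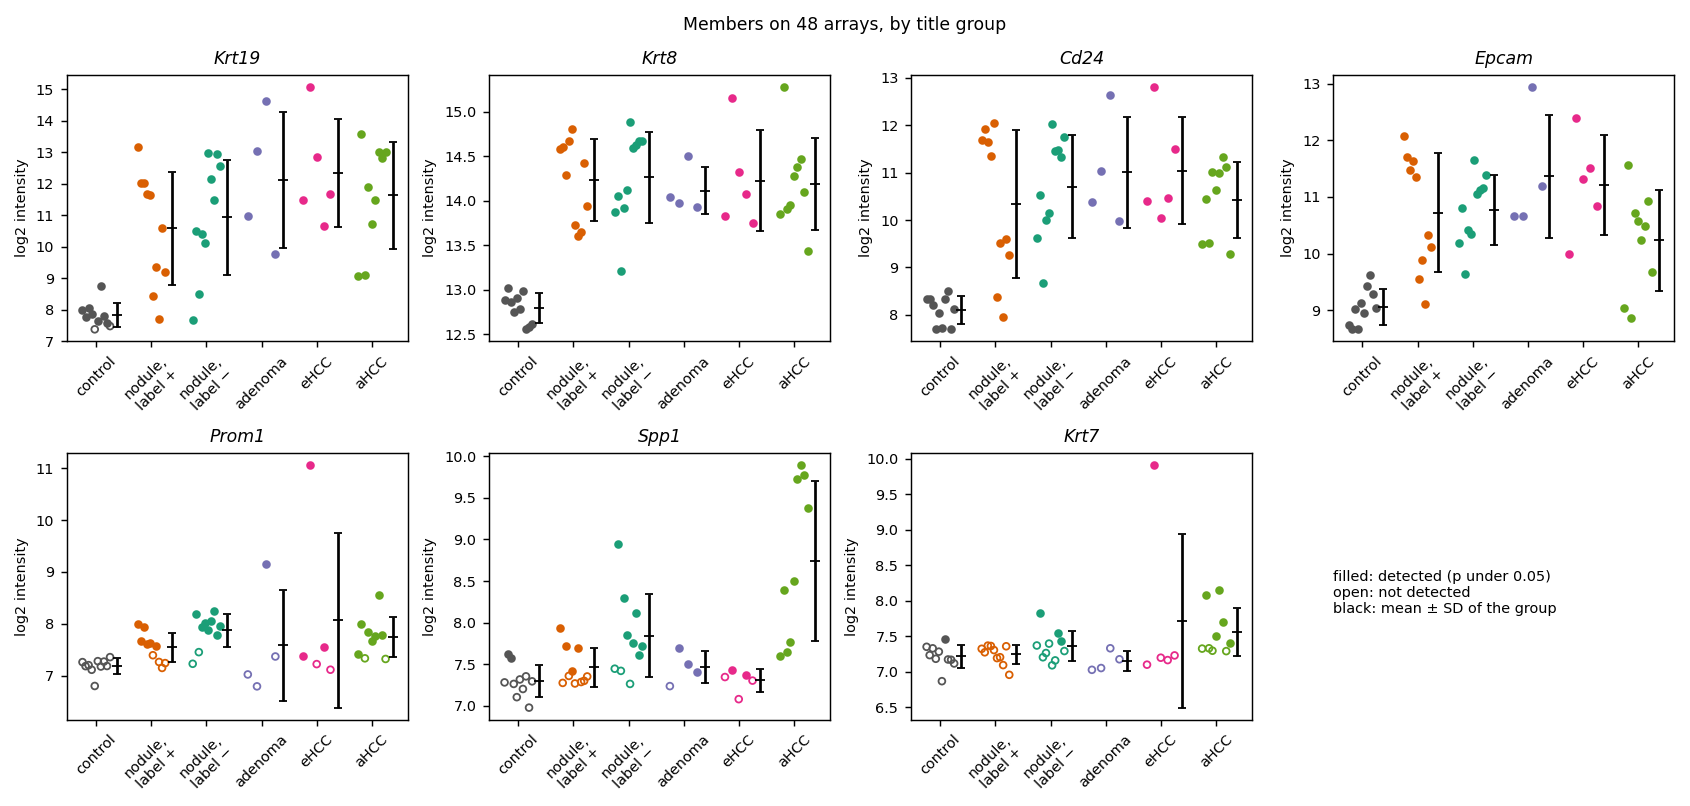
Log2 intensity of the 7 measured genes on each of the 48 arrays, by title group, with 1 panel and 1 scale per gene. Filled points are detected and open points not detected, and black bars are the group mean ± SD. Krt8 separates all lesions from all controls, Krt19, Cd24 and Epcam spread widely within each lesion group, and Spp1 is high in most aHCC.

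The surface proteins Epcam and Cd24 were, like Krt19, higher than control in nodules, adenomas, eHCC and aHCC. From nodules to aHCC the log2 difference was 0.88 for Krt19, −0.52 for Epcam and −0.09 for Cd24, and none passed (limma, adjusted p = 0.311, 0.220 and 0.901). Whether the 3 genes differed from each other in this step was not tested. Epcam, an epithelial adhesion protein of ducts and progenitor cells, had 8.66 to 9.62 in controls (median 9.03) and 9.10 to 12.08 in nodules (median 10.93), with 18 of 20 nodules above the highest control. Its difference in nodules was 1.69 ± 0.30 (SE), or 3.23-fold (adjusted p = 2.95e-05). The adenomas had 10.67, 10.66, 12.95 and 11.18 and the eHCC 10.00, 12.40, 11.31, 11.51 and 10.84, all above the controls, for 4.96-fold (adjusted p = 0.000148) and 4.46-fold (adjusted p = 8.42e-05). In aHCC the values ran from 8.86 over 10.49 to 11.57, and samples 28 and 30, at 9.03 and 8.86, fell within the control range. The aHCC difference was 1.18 ± 0.36 (SE), or 2.26-fold (adjusted p = 0.00753). It no longer passed against the 3 controls numbered within the same range, 46 to 48, whose Epcam was 9.62, 9.29 and 9.03 (log2 difference 0.91, adjusted p = 0.237).

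Cd24, a small glycosylated surface protein of progenitor cells, had 7.69 to 8.51 in controls (median 8.16) and 7.95 to 12.05 in nodules (median 10.93). It was 5.35-fold higher in nodules (2.42 ± 0.40, SE, adjusted p = 8.49e-06), with 18 of 20 above the highest control. The adenomas had 10.37, 11.03, 12.64 and 9.98, the eHCC 10.40, 12.82, 10.04, 10.47 and 11.49, and the aHCC ran from 9.27 over 10.63 to 11.34, with no overlap with the controls. The folds were 7.50 in adenomas, 7.71 in eHCC and 5.02 in aHCC (adjusted p = 0.000271, 5.32e-05 and 9.80e-05).

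Prom1, the pentaspan membrane protein also called CD133, was not detected in any control and was detected in 14 of 20 nodules, 1 of 4 adenomas, 3 of 5 eHCC and 7 of 9 aHCC. Nodules had 7.15 to 8.25 (median 7.73) against 6.80 to 7.36 in controls, and 16 of 20 lay above the highest control. Since no control was detected, the control level is uncertain. It was raised, on each control array, to the higher of the lowest detected signal and the probe's own value. Against that level the lesion mean was 1.20-fold higher in nodules, 1.10-fold in adenomas, 1.54-fold in eHCC and 1.23-fold in aHCC. Undetected lesion values entered as measured, so these folds are not strict lower limits. The measured adenoma difference of 0.40 did not pass (limma, adjusted p = 0.490). The nodule difference of 0.53 ± 0.24 (SE) did not pass over all arrays (adjusted p = 0.112) but passed within each number range (0.58, adjusted p = 0.00872, and 0.57, adjusted p = 0.00112), where 21.2% and 36.1% of all features passed. In eHCC, 0.88 ± 0.35 (SE) passed with an adjusted p of 0.0450. That call rested on sample 39, with 11.07 against 7.38, 7.22, 7.55 and 7.11 in the other 4, and without it the difference was 0.13 (adjusted p = 0.742). The call was also lost with either block of sample numbers, within samples 28 to 48 (adjusted p = 0.452) and without any 1 of 9 single controls (adjusted p from 0.0501 to 0.0663). Among adenomas, sample 42 had 9.15 and the others 7.02, 6.79 and 7.37.

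Spp1, osteopontin, was near background at 10 months and rose in aHCC. Among the measured genes only Spp1 passed against control in aHCC and in no other group. It was detected in 2 of 10 controls, 11 of 20 nodules, 3 of 4 adenomas, 2 of 5 eHCC and 9 of 9 aHCC. Controls had 6.98 to 7.62 (median 7.29), nodules 7.26 to 8.95 (median 7.53), adenomas 7.24, 7.70, 7.51 and 7.41, and eHCC 7.35, 7.43, 7.08, 7.37 and 7.30. The 9 aHCC had 7.60 to 9.89 (median 8.51), with 8 above the highest control, and the 4 samples numbered 33 to 36 were highest at 9.73, 9.89, 9.77 and 9.38. The aHCC difference from control was 1.44 ± 0.22 (SE), or 2.71-fold (adjusted p = 1.50e-06), and with background-corrected intensities it was 2.74 on the log2 scale. The differences in nodules (0.35, adjusted p = 0.179), adenomas (0.16, adjusted p = 0.745) and eHCC (0.0072, adjusted p = 0.989) did not pass. Against the earlier lesions themselves, Spp1 was 2.12-fold higher in aHCC than in nodules (1.09 ± 0.20, SE, adjusted p = 2.86e-05) and 2.70-fold higher than in eHCC (1.43 ± 0.27, SE, adjusted p = 0.000276). With sets of 12 sample numbers as a block, a stand-in for array carriers that the labels do not give, neither passed (adjusted p = 0.231 and 0.308).

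By count, 4 of the 7 genes (Krt19, Krt8, Cd24 and Epcam) rose in nodules, where 25.4% of all features passed in either direction. The same 4 rose in adenomas (26.0% of all features), those 4 and, only with sample 39, Prom1 in eHCC (32.2%), and those 4 and Spp1 in aHCC (38.0%), and none fell. The median difference of the 7 genes was 1.45 in nodules, 1.32 in adenomas, 1.43 in eHCC and 1.39 in aHCC, while the median over all features lay between −0.0064 and −0.00051 in these comparisons. These 4 comparisons share the 10 controls. Between aHCC and nodules 1 of 7 passed (Spp1, against 30.7% of all features), and between aHCC and eHCC again 1 of 7 (Spp1, against 15.8%). Epcam was lower in aHCC than in eHCC by −0.98 ± 0.43 (SE) on the log2 scale without passing (adjusted p = 0.122). Between eHCC and adenomas, limma passed none of the 7 and 0 of 13479 features, with 173 features at an unadjusted p under 0.05.

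**Figure D2:**
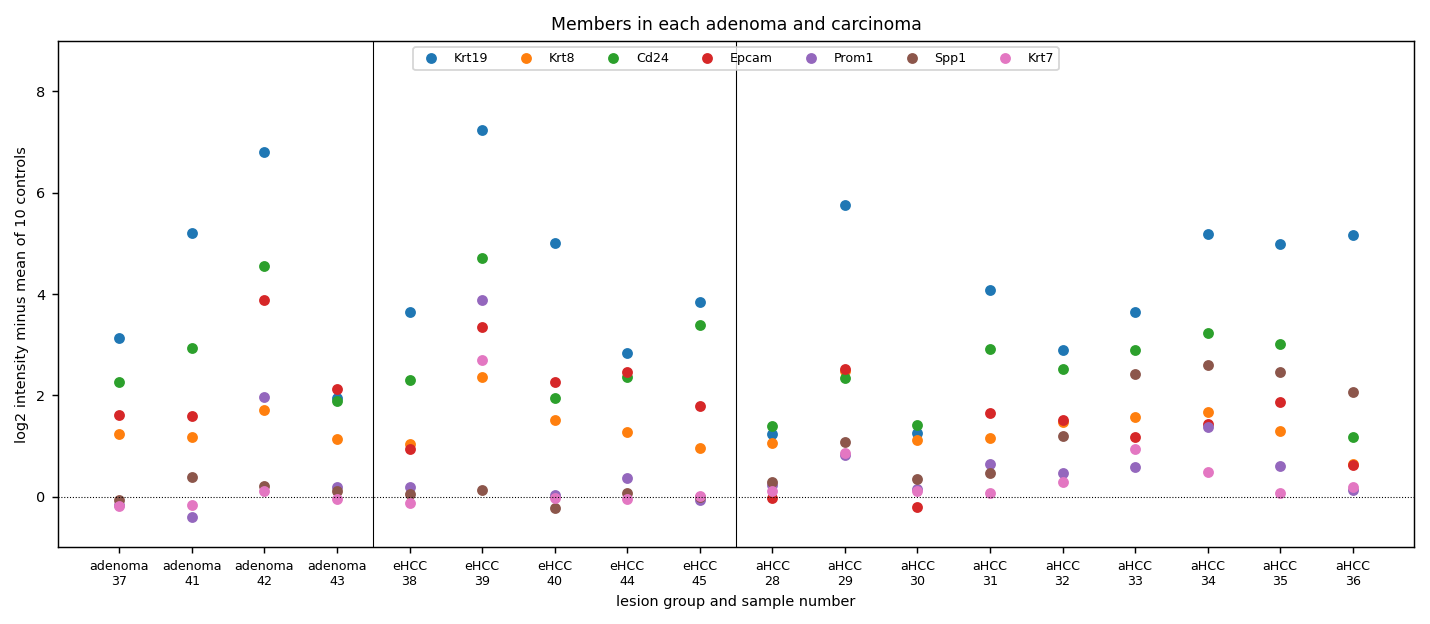
Log2 intensity of the 7 genes minus the mean of the 10 controls (vertical axis) in each of the 4 adenomas, 5 eHCC and 9 aHCC, by sample number. Adenoma 42 and eHCC 39 have the highest Krt19 and Prom1, Krt7 is raised most in eHCC 39, and Spp1 is highest in aHCC 33 to 36.

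Within the later lesions, adenoma 42 and eHCC 39 stood at the top for several genes at once. They had the 2 highest Krt19 values of all 48 arrays, 14.63 and 15.08, the 2 highest Cd24 values, 12.64 and 12.82, and the 2 highest Prom1 values. Among the other genes listed as markers, Krt20, a keratin of intestinal epithelium, was 10.45 in adenoma 42 and 12.77 in eHCC 39, against 7.94 to 8.71 in the other 7 lesions of 10 months. Tff3, a secreted trefoil peptide of mucous epithelia and ducts, was 11.53 and 11.70 against 7.55 to 8.52. Krt7 and the mucin Muc1 were raised in eHCC 39, where Muc1 was 9.56, and not in adenoma 42, where Krt7 was 7.33 and Muc1 7.42. Spp1 was 7.51 and 7.43 in these samples, within the range of the controls.

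The titles did not divide the nodules over both ranges. For Krt19 the KRT19-positive minus KRT19-negative difference was −0.36 ± 0.70 (SE), and limma passed none of the 7 genes and 0 of 13479 features, with 224 features at an unadjusted p under 0.05. Within samples 1 to 14, Krt19, Krt8, Cd24 and Epcam were higher under the positive title by 2.66, 0.75, 1.94 and 1.37 on the log2 scale (adjusted p = 0.00118, 0.00309, 0.000224 and 0.000179), where 12.2% of all features passed. Within samples 15 to 27, Krt19, Krt8, Cd24, Epcam and Prom1 were lower under the positive title, by −3.37, −0.82, −2.67, −1.47 and −0.66 (adjusted p = 0.000208, 0.000473, 4.77e-05, 0.000196 and 0.000634), where 23.3% passed. So Krt8, Cd24 and Epcam turned together with Krt19, gene by gene, and Spp1 and Krt7 passed in neither range.

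**Figure D3:**
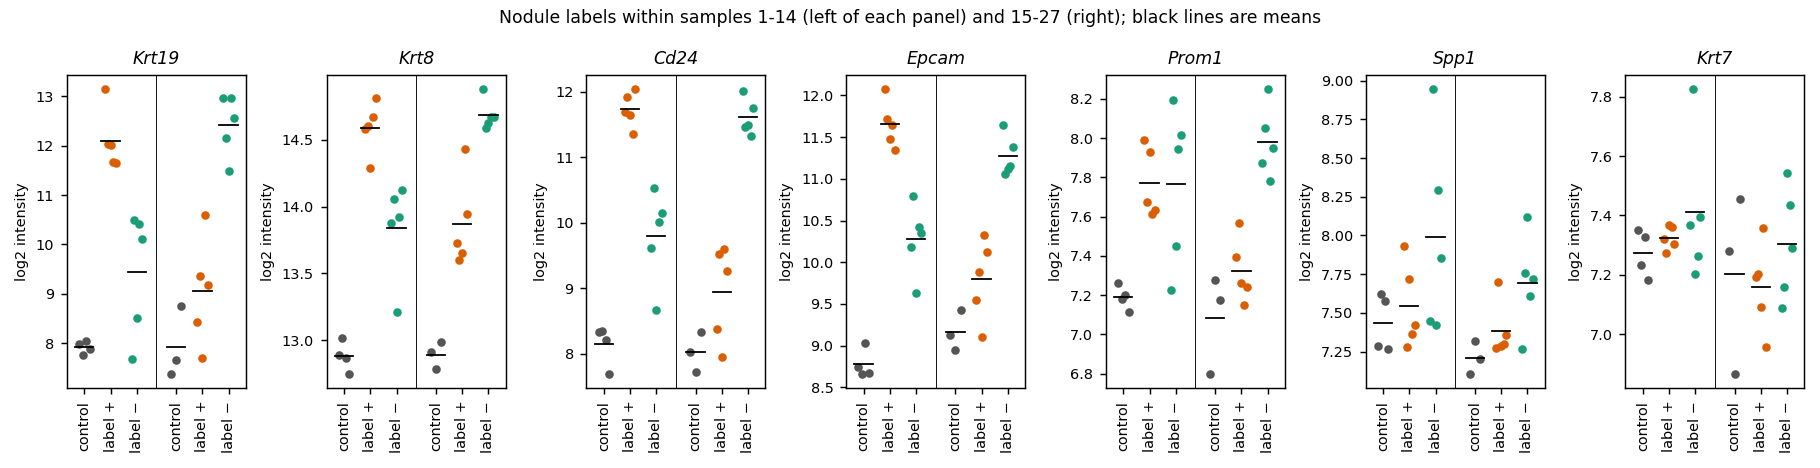
Log2 intensity of the 7 genes in controls and in nodules by KRT19 title, for samples 1 to 14 on the left and 15 to 27 on the right of each panel, with black lines at the means. Krt19, Krt8, Cd24 and Epcam are higher under the positive title on the left and under the negative title on the right.

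Across the 20 nodules, taken by value and not by title, Cd24, Epcam, Krt8 and Prom1 tracked Krt19, while Krt7 and Spp1 did not. Krt19 spread over 5.47 log2 units without a wide break, its largest gap being 0.89 between 10.60 and 11.49, with 10 nodules on each side. For each log2 unit of Krt19, Cd24 was higher by 0.68 ± 0.06 (SE, adjusted p = 3.47e-08), Epcam by 0.43 ± 0.04 (adjusted p = 4.17e-08), Krt8 by 0.23 ± 0.03 (adjusted p = 1.38e-06) and Prom1 by 0.12 ± 0.03 (adjusted p = 0.00530). For Krt7 the slope was 0.02 ± 0.02 (adjusted p = 0.526) and for Spp1 0.04 ± 0.05 (adjusted p = 0.618). So 4 of 6 genes passed where 29.3% of 13478 features did, 15.4% with a rising slope.

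Pearson's r with Krt19 was 0.92 for Cd24 and Spearman's rho 0.83, with permutation p of 1e-05 and 2e-05, the first being the smallest that 100000 permutations can give. Epcam had r = 0.92 and rho = 0.89, Krt8 r = 0.88 and rho = 0.83, and Prom1 r = 0.64 and rho = 0.55. After adjustment over 13478 features, the permutation p of r was 0.000202 for Cd24, Epcam and Krt8 and 0.0134 for Prom1, and that of rho was 0.000321, 0.00021, 0.00042 and 0.0478. By these permutation tests 28.5% of all features passed with either coefficient. Krt7 had r = 0.22 and rho = 0.15 (adjusted permutation p = 0.549 and 0.692), and Spp1 r = 0.17 and rho = 0.15 (0.666 and 0.685). In the order of r over all features, Cd24 ranked 62, Epcam 63, Krt8 207, Prom1 1324, Krt7 4446 and Spp1 4911 of 13478.

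Within both number ranges the slopes of 3 genes, Cd24, Epcam and Krt8, passed (limma, with 11.6% and 30.9% of all features). Within nodules 1 to 10, r was 0.89 for Cd24, 0.93 for Epcam and 0.81 for Krt8, and within nodules 15 to 24 it was 0.97, 0.98 and 0.95. By permutation in nodules 1 to 10, Epcam passed (adjusted p = 0.0199 for r and 0.027 for rho), Cd24 passed by r (0.0251) and not by rho (0.0674), and Krt8 passed by neither (0.0585 and 0.133). In nodules 15 to 24 all 3 passed by r (adjusted permutation p = 0.00234 for Cd24, 0.00194 for Epcam and 0.00395 for Krt8). Of all 13478 features, 899 passed by r and 484 by rho in nodules 1 to 10, and 3728 by r in nodules 15 to 24. Without the 2 nodules farthest from the median Krt19, samples 6 and 22, r was 0.93 for Cd24, 0.93 for Epcam and 0.89 for Krt8, but 0.51 for Prom1, whose slope of 0.11 then no longer passed (limma, adjusted p = 0.0609). Prom1 was less steady, with r of 0.53 within nodules 1 to 10 and 0.73 within 15 to 24, and without 2 nodules of the lower range, samples 6 and 8, its r there was −0.37. No slope differed between the ranges for any of the 6 genes (limma interaction, adjusted p from 0.839 to 0.992), nor for any feature in the table.

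**Figure D4:**
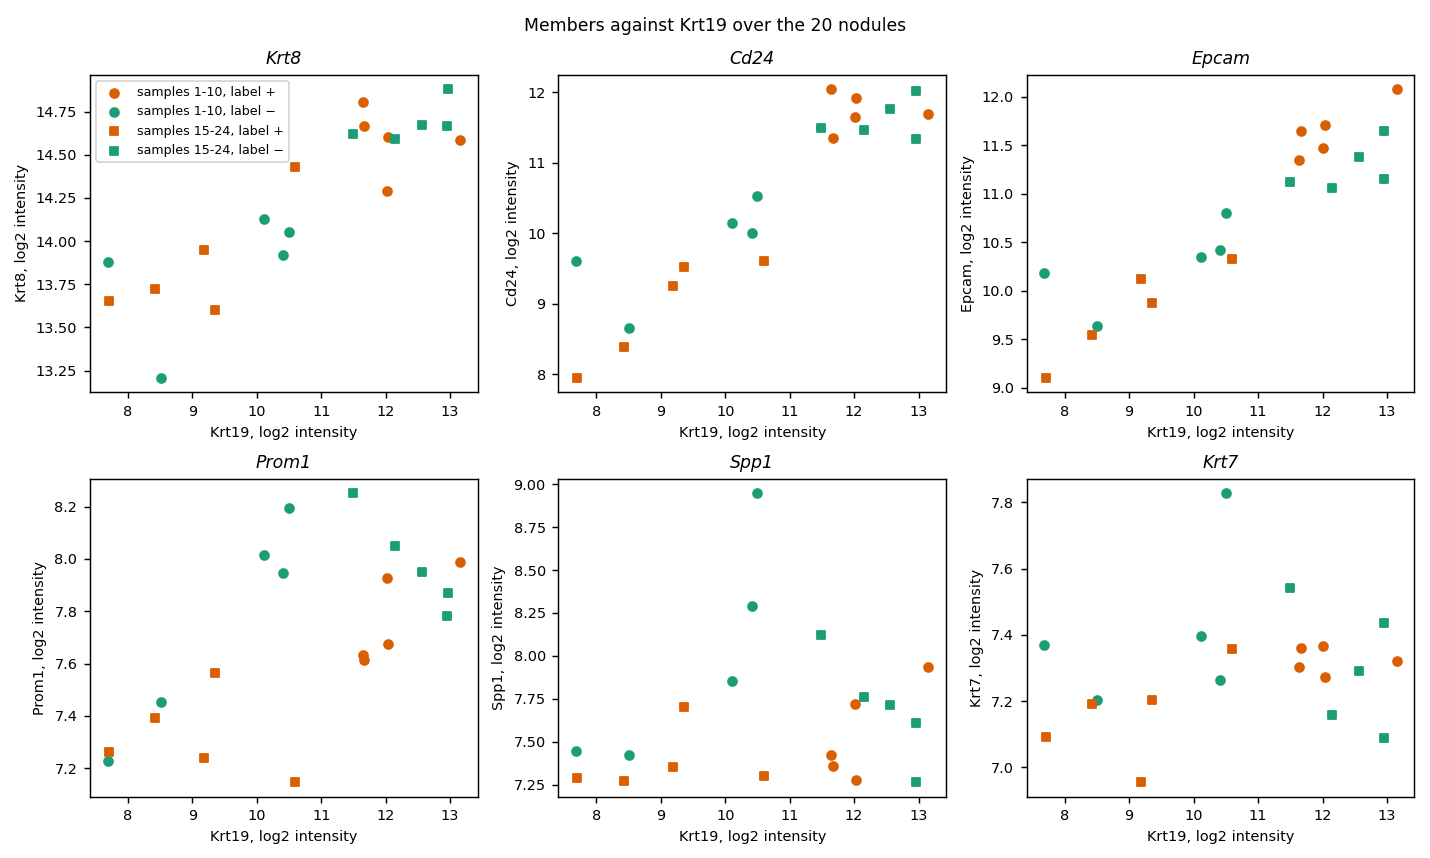
Log2 intensity of each gene (vertical axis) against Krt19 (horizontal axis) in the 20 nodules, with circles for samples 1 to 10, squares for 15 to 24 and colours for the title. Cd24, Epcam and Krt8 rise with Krt19 in both ranges, and Spp1 and Krt7 have their highest values in nodule 7, where Krt19 is 10.50.

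Among themselves, the genes fell into a tight and a loose group over the nodules. Cd24 and Epcam had r = 0.96 with each other, Krt8 had 0.89 with Cd24 and 0.87 with Epcam, and these values share the array and its overall signal. Prom1 had r = 0.65 with Cd24 and 0.73 with Spp1, and Spp1 had 0.71 with Krt7. Neither relation with Spp1 passed after adjustment over all features (adjusted permutation p = 0.189 for Prom1 and 0.455 for Krt7), where 0.0297% of features passed. Without nodules 7 and 9, r with Spp1 was 0.78 for Prom1 and 0.54 for Krt7. Nodule 7, labelled KRT19-negative, had the highest Spp1, 8.95, and the highest Krt7, 7.83, of the 20 nodules, with Krt19 at 10.50.

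The relation was also read in the aHCC and the controls, the other title groups large enough. In the 9 aHCC, r with Krt19 was 0.78 for Epcam (exact permutation p = 0.0142, adjusted p = 0.43), 0.48 for Cd24 and 0.40 for Krt8, and none passed, as was true of all features by r (0%) and all but 2 by rho (0.0148%). Without samples 28 and 30, which had the lowest Krt19, r for Epcam was 0.28. In the 10 controls, where Krt19 ran only from 7.38 to 8.76, none of the 6 genes passed either, with r between 0.16 and 0.62. No feature of the 13478 passed in the controls by r or by rho (0%), so this says nothing particular about these genes.

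**Figure D5:**
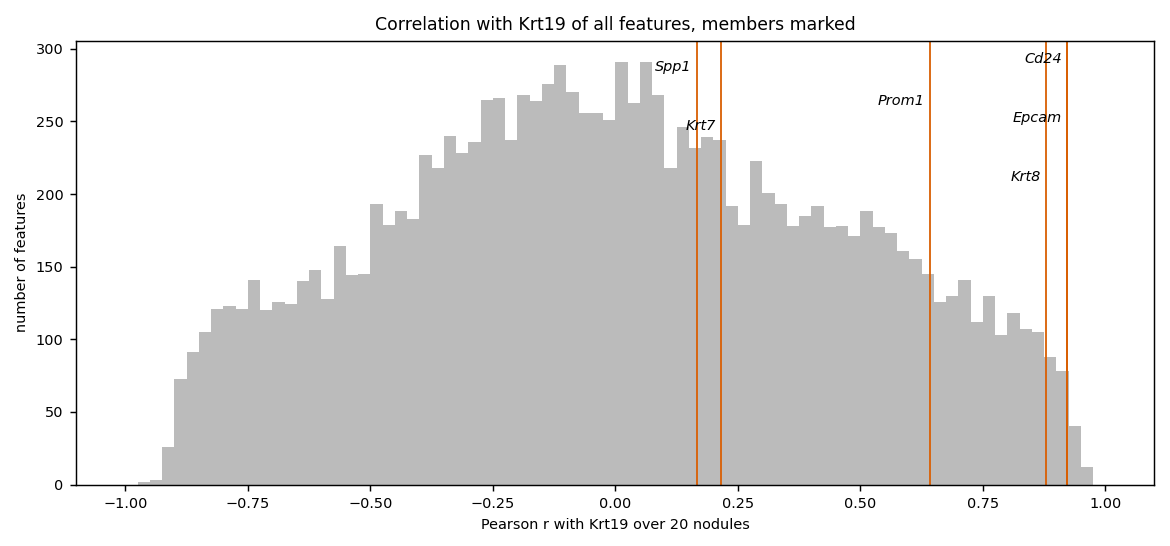
Number of features (vertical axis) by Pearson's r with Krt19 over the 20 nodules (horizontal axis), with lines for 6 genes. Cd24, Epcam and Krt8 sit in the upper tail, at 0.92, 0.92 and 0.88, and Krt7 and Spp1 near the middle, at 0.22 and 0.17.

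The named genes most like Krt19 over the 20 nodules, by Pearson's r, lay outside the marker lists. The 10 highest were Tspan3, a tetraspanin (r = 0.97), Ctse, the protease cathepsin E (0.96), Lims1, an adaptor of integrin-linked kinase (0.96), Ezr, the membrane and actin linker ezrin (0.96), Slc40a1, the iron exporter ferroportin (0.96), Prnp, the prion protein (0.96), Akr1c13, an aldo-keto reductase (0.95), Tax1bp3, a PDZ protein (0.95), Abcb1b, a multidrug efflux pump (0.95), and Anxa2, an annexin (0.95). Ctse ran from 7.20 over a median of 10.09 to 11.91 in nodules, against 7.73 ± 0.15 (SD, n = 10) in controls. Abcb1b ran from 7.15 over 12.00 to 12.99, against 8.33 ± 0.74 (SD, n = 10). Lims1 was dim and moved little in the nodules, from 6.98 over 7.34 to 7.71, against 7.20 ± 0.14 (SD, n = 10) in controls. The 5 lowest were Bphl, a serine hydrolase (−0.95), Grpel1, a mitochondrial chaperone cofactor (−0.95), Mob2, a regulator of kinases (−0.93), Tas1r1, a taste receptor subunit (−0.93), and Ipmk, an inositol phosphate kinase (−0.92).

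Krt19 lies in the type I keratin cluster, and its neighbours on the chromosome were set beside it. Of the 24 nearest genes in the RefSeq order of GRCr8, 19 had a probe and 8 were tested. The 4 keratins among them, Krt35, Krt36, Krt17 and Krt42, had r between −0.49 and −0.28 and did not pass. Hap1 (r = 0.87), P3h4, an endoplasmic reticulum protein of collagen modification (0.83), and Fkbp10, a collagen chaperone (0.71), passed, 3 of 8 where 29.3% of all features did, so nothing particular to the neighbours is read from this.

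Among other duct genes, Aqp1 rose and Onecut1 fell in adenomas, eHCC and aHCC. Tff3 rose in aHCC and, resting on single samples, in adenomas and eHCC. This count and those of the further lists below stand against 25.4% of all features passing in nodules, 26.0% in adenomas, 32.2% in eHCC and 38.0% in aHCC, and against 29.3% for the slope on Krt19, of which 15.4% rose. Of 20 further biliary genes, 12 were tested. In nodules 1 rose, the water channel Aqp1 (0.40 ± 0.12, SE, adjusted p = 0.0109). Tff3 was detected in no control and in every adenoma, eHCC and aHCC. Its fold therefore has only a lower limit, set against the raised control level used for Prom1. In adenomas 2 rose, Tff3 (at least 2.67-fold) and Aqp1 (0.99), and 1 fell, the duct and hepatocyte transcription factor Onecut1, by −3.00 ± 0.59 (SE, adjusted p = 0.000128). In eHCC 3 rose, among them Tff3 (at least 2.44-fold) and Aqp1 (1.10), and 1 fell (Onecut1, −3.09). The Tff3 calls rested on single samples, since without adenoma 42 the measured difference in adenomas was 0.77 (adjusted p = 0.291) and without eHCC 39 that in eHCC was 0.79 (adjusted p = 0.172). In aHCC 4 rose, among them Tff3 (at least 2.47-fold) and Aqp1 (1.17), and 2 fell, Onecut1 (−1.86) and the anion exchanger Slc4a2 (−0.85). On Krt19 over the nodules, Tff3 rose with a slope of 0.21 and Bicc1, an RNA-binding protein of tubular epithelia, with 0.08, and Onecut1 fell with −0.39. The medians of these 12 genes were 0.14 in nodules, 0.09 in adenomas, 0.21 in eHCC and 0.19 in aHCC. In nodules, adenomas and eHCC and on Krt19, the counts of 12 lay below or near the shares of all features. Nothing particular to duct genes is read from these counts. Only in aHCC did the count lie above the share, and the list was not tested as a set. The difference from the 7 genes was not tested as a set either.

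Genes of progenitor and fetal liver mostly rose where they passed, apart from Afp. Of 15 listed, 10 were tested, and in nodules 4 rose and 1 fell. The largest rises were Tnfrsf12a, the receptor of the cytokine TWEAK (1.27 ± 0.28, SE, adjusted p = 0.00059), and Gpc3, the fetal proteoglycan glypican 3 (1.11, adjusted p = 0.0134). Afp, the fetal serum protein alpha-fetoprotein, fell by −0.66 ± 0.25 (SE, adjusted p = 0.0453), a call lost without any 1 of 20 single arrays (adjusted p up to 0.0741). In adenomas 5 rose, led by the transcription factor Sox4 (1.85) and Gpc3 (1.70). In eHCC 6 rose, led by Sox4 (1.87) and Gpc3 (1.79), and Afp fell by −1.11. Gpc3 did not pass in adenomas without sample 42 (1.04, adjusted p = 0.191) or in eHCC without sample 39 (0.86, adjusted p = 0.0927). In aHCC 5 rose, led by the tetraspanin Tspan8 (1.96) and Gpc3 (1.86). Over the nodules, 6 of 10 rose with Krt19, with slopes of 0.44 for Tnfrsf12a and 0.37 for Sox4, and Afp fell with −0.20 (adjusted p = 1.98e-08, 8.29e-06 and 0.000218). The list's mean was 8.60 to 8.91 in controls and 8.60 to 9.58 in nodules.

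Among 6 tested keratins outside the list, none passed in nodules or adenomas. Krt20 rose in eHCC (1.69, adjusted p = 0.0141), though not without sample 39 (0.81, adjusted p = 0.243), and in aHCC (1.72, adjusted p = 0.00245). Krt4 rose in aHCC by 0.22, though not without sample 32 (0.18, adjusted p = 0.0529), and Krt20 rose with Krt19 over the nodules with a slope of 0.20 (adjusted p = 0.00262). Of 15 tested claudins and junction genes, Cldn1 fell in nodules by −0.94 ± 0.08 (SE, adjusted p = 8.03e-12) and Cldn2 by −0.65, while F11r (0.68) and the desmosome protein Pkp2 (0.53) rose. Cldn1, a hepatocyte claudin, also fell in adenomas (−0.98, the 1 call there) and in eHCC (−0.96), where Pkp2 rose (1.03). In aHCC 3 rose, Pkp2 (0.63) and, detected in no control, Cldn9 (1.06-fold) and Cldn10 (1.01-fold), and 6 fell, led by Jup, plakoglobin (−0.85), and Cldn1 (−0.77). The folds of Cldn9 and Cldn10 are against the raised control level used for Prom1. They are not strict lower limits, since undetected aHCC values entered as measured (Cldn9 was detected in 6 aHCC and Cldn10 in 5). On Krt19 3 rose, led by F11r (0.15) and Pkp2 (0.13), and 2 fell, Cldn1 (−0.12) and Cldn5 (−0.06). The Cldn5 call was lost without any 1 of several nodules (limma, adjusted p up to 0.118, without nodule 6, where the slope was −0.05).

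Of 8 tested genes of the Notch and YAP pathways, which act in duct formation, the YAP targets Ccn1 (0.99, adjusted p = 8.57e-06) and Ccn2 (0.85, adjusted p = 0.00353) rose in nodules. Ccn1 rose in adenomas (0.89), Ccn2 and Ccn1 in eHCC (1.31 and 1.02) and in aHCC (1.22 and 0.52), and Notch1 fell in aHCC by −0.24. Without adenoma 42 Ccn1 did not pass in adenomas (0.45, adjusted p = 0.195), without eHCC 39 it was 0.67 in eHCC, and in aHCC both Ccn1 and Notch1 were lost without any 1 of several arrays (adjusted p up to 0.0635 and 0.0909). On Krt19, Ccn2 rose with a slope of 0.28 (adjusted p = 1.80e-06) and the Notch target Hes1 fell with −0.17 (adjusted p = 0.00105). Jag1, Hey1, Ankrd1 and Wwtr1 passed in none of these. Of the 8 genes, 2 rose in nodules (25.4% of all features passed), 1 in adenomas (26.0%) and 2 in eHCC (32.2%). In aHCC 2 rose and 1 fell (38.0%), and on Krt19 1 rose and 1 fell (29.3%). No count exceeded the share of all features, so nothing particular to these pathways is read from them.

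Markers of other cell types moved with Krt19 too. Stellate and fibroblast genes rose with it over the nodules in 5 of 7 cases, led by the collagen chains Col1a2 (slope 0.35, adjusted p = 8.47e-08) and Col1a1 (0.29), and hepatocyte genes fell in 6 of 10, beside the 29.3% of all features that passed in either direction, led by Cyp8b1 (−0.65, adjusted p = 1.63e-05) and Cyp2c11 (−0.49). Both are cytochrome P450 genes. The mean of the stellate and fibroblast list was 8.51 to 9.27 in controls and 8.74 to 10.08 in nodules, with r = 0.91 and rho = 0.88 against Krt19, and the hepatocyte mean had r = −0.83 and rho = −0.85. Blood genes had r = −0.72 (3 of 5 fell), lymphocyte genes r = 0.67 (3 of 5 rose, 1 fell), macrophage genes r = 0.12 (3 of 4 rose, 1 fell) and endothelial genes r = 0.09 (0 of 3). The number of detected probes had r = 0.66 with Krt19, and 0.97 and 0.84 within the 2 ranges. The means of the further lists had r = −0.32 and rho = −0.32 (other biliary genes), 0.93 and 0.90 (progenitor and fetal genes), 0.50 and 0.41 (Notch and YAP), 0.61 and 0.59 (other keratins) and 0.52 and 0.55 (claudins and junctions). Adjusted permutation p of r and rho was 0.203 and 0.202, 4e-05 and 8e-05, 0.0321 and 0.0972, 0.00621 and 0.0124, and 0.027 and 0.0213 in that order. These were 12 relations in all, and for the others the permutation p of r adjusted over them was 4e-05 for the stellate and hepatocyte means, 0.00153 for blood, 0.0039 for lymphocytes and detected probes, 0.661 for macrophages and 0.697 for endothelium.

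The slopes on Krt19 were refitted with such measures as a term. Beside the number of detected probes, all 4 still passed (23.2% of all features). Beside the mean of the stellate and fibroblast markers, Cd24 (slope 0.62, adjusted p = 0.0438) and Epcam (0.49, adjusted p = 0.0142) still passed where 1.18% of features did, Krt8 kept a slope of 0.23 without passing (adjusted p = 0.111), and Prom1 turned to −0.06 (adjusted p = 0.807). Within the 4 cells of title and range, with 5 nodules each, Epcam (0.31, adjusted p = 0.00649) and Cd24 (0.40, adjusted p = 0.0309) passed where 2.20% of features did, and Krt8 (0.16, adjusted p = 0.148) and Prom1 (0.12, adjusted p = 0.260) did not. These 3 terms were chosen after the data were seen.

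In the comparisons of groups, the same cell type lists moved as follows. Collagen Col1a2 rose in nodules (1.71), adenomas (2.08) and eHCC (2.50), and Vim (1.21) and Dcn (1.61) led in aHCC, with 3, 4, 5 and 3 of 7 stellate and fibroblast genes rising in that order of groups. Lum fell in nodules (−0.26) and in eHCC (−0.33 as measured, a call lost without sample 40, adjusted p = 0.0677). It was detected in no eHCC and in 5 controls. Of 10 hepatocyte genes, 2 fell in nodules (25.4% of all features passed), 3 in adenomas (26.0%), 6 in eHCC (32.2%) and 6 in aHCC (38.0%), with Cyp2c11 lower by −1.93, −3.60, −6.18 and −6.04. Of 4 macrophage genes, Marco and Cd163 fell in nodules (−1.94 and −0.46), adenomas (−2.35 and −0.63) and eHCC (−3.12 and −0.77), and Marco fell in aHCC (−1.26). In adenomas Cd163 was lost without sample 41, 42 or 43 (adjusted p = 0.0669, 0.270 and 0.0921). Endothelial Vwf rose in nodules (0.37, lost without any 1 of 17 arrays, adjusted p up to 0.0731) and fell in adenomas (−0.79) and eHCC (−0.83). Hemoglobin genes Hbb and Hba-a1 fell in nodules (−2.08 and −1.69), adenomas (−1.30 and −0.95) and eHCC (−1.46 and −1.24), and Alas2 rose (0.24) and Slc4a1 fell (−0.22) in aHCC. Of 5 lymphocyte genes, Cd3d rose in aHCC (0.38) and none passed in the other groups. Without adenoma 42, Hbb and Hba-a1 did not pass in adenomas (adjusted p = 0.0597 and 0.0890), nor Cd3d in aHCC without control 13, aHCC 31 or aHCC 34 (adjusted p = 0.0510, 0.0602 and 0.0546). The hepatocyte genes, Ttr, Cps1 and Asgr1, did not pass in eHCC without sample 39 (adjusted p = 0.109, 0.141 and 0.168). Where these lists moved with the 7 genes between groups, their part in the differences was not tested.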

How the data were processed

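Total RNA of 48 dissected samples was hybridised as biotinylated RNA to single-colour Illumina rat arrays. Per the submitters' processing notes, BeadStudio 3.0.19.0 was used. Each of 2 deposited tables holds, per array, an intensity and a detection p-value of 22523 probes, and the 2 were identical. The deposited intensity was already normalized between arrays, since array medians lay between 159.0 and 159.6, and was not background-subtracted, with a lowest value of 96.8. The sources used here do not give the method. The log2 of the deposited intensity was therefore used as it stood, in place of the background correction and normalization a raw table would need.

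Probes with a detection p-value under 0.05 on at least 4 arrays were kept (13679), and the brightest stood for each symbol, giving 9273 genes and 4206 unnamed probes. Of all probes 13793 had 1 symbol, 0 several and 8730 none, from GEO's platform annotation, and 13752 gene identifiers matched RefSeq of GRCr8 with 0 symbols changed. Groups came from the sample titles. Limma 3.58.1 in R 4.3.3 (lmFit, eBayes) fitted all 6 title groups at once, with p-values adjusted by Benjamini-Hochberg over all features. Slopes on Krt19 were fitted over the 20 nodules, and correlations were tested, two-sided, with 100000 permutations, or all of them for the 9 aHCC (Python 3.11.15, SciPy 1.17.1). The fits were tested on simulated data. The number of arrays limits the precision. Nothing says that samples came from separate rats, so p-values measure the spread between samples.

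The genes and marker lists were chosen with earlier results of these data known. Named genes were all listed genes, the 2 largest rises and falls that passed in each other list, and the 10 highest and 5 lowest r with Krt19 that had the same sign in both ranges. Krt20, Tff3 and Muc1 in single lesions, and the neighbours of Krt19, were named after their values were seen. Alternatives were neqc (offset 16), no detection filter, the mean of a gene's probes, a trend in eBayes, blocks of sample numbers, single number ranges, and leaving out controls 25 to 27 or each array. The comparisons of aHCC with eHCC and of eHCC with adenoma were added after the data were seen, as was leaving out each array for the genes of the further lists. Probe sequences were not used here.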

Additional observations from a re-analysis of the deposited data

Results flagged for a closer look

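In 42 groups of 4 to 10 samples tested for a single stray value, 4 were found, and chance gives about 1 in 20. Krt19 was 8.76 in control 27, with the next control at 8.05. Prom1 was 6.80 in control 25, with the next at 7.11, both undetected. In eHCC 39, Krt7 was 9.91 with the next eHCC at 7.23, and Prom1 was 11.07 with the next at 7.55.

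The difference between the KRT19 titles was not the same in the 2 ranges of nodule numbers. The positive minus negative difference in nodules 15 to 24, less that in nodules 1 to 10, was −6.03 for Krt19 (limma interaction, adjusted p = 7.26e-06), −1.57 for Krt8 (adjusted p = 2.42e-05), −4.60 for Cd24 (adjusted p = 1.01e-06), −2.85 for Epcam (adjusted p = 1.63e-06) and −0.66 for Prom1 (adjusted p = 0.0204). For Krt19, Krt8, Cd24 and Epcam all 5 nodules of one title lay above all 5 of the other in each range, in opposite order. Over all features, 3976 of 13479 passed the same interaction, so the turn was not particular to these genes. How many features separated fully by title was not counted. The cause was not tested.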

How the results depend on the processing

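Of the group counts, 137 of 156 were within 1.5 times their value under the alternatives, apart from single arrays left out. With sets of 12 sample numbers as a block, a stand-in for array carriers that the labels do not give, the features passing were 1912 for nodules, 2077 for aHCC, 11 for aHCC minus nodules and 1 for aHCC minus eHCC, and 0 listed genes passed in the last 2, with Spp1 at 1.31 (adjusted p = 0.231) and 1.43 (adjusted p = 0.308). With the number range as a block, aHCC minus nodules had 2227. Within samples 28 to 48 the counts were 2047 (adenoma), 2679 (eHCC) and 3406 (aHCC). By title, 4 listed genes and 1648 features passed within samples 1 to 14, and 5 and 3143 within 15 to 27, with the 4 at 2.66 (Krt19), 0.75 (Krt8), 1.94 (Cd24) and 1.37 (Epcam) turned in sign against both ranges together. The Krt19 slope passed for 1566 features within samples 1 to 14, for 296 features and 2 listed genes with title by range as a term, and for 159 and 2 with the stellate and fibroblast mean, where Prom1 was −0.059. Leaving out single arrays moved the listed genes passing between 4 and 6 in eHCC and between 1 and 2 in aHCC minus eHCC. In the latter, Krt7 ran from −0.31 to 0.39, the highest without eHCC 39 (adjusted p = 0.0322), and Epcam was −1.15 (adjusted p = 0.0464) without aHCC 29. Without any 1 of the other 4 eHCC, Krt7 in eHCC passed at 0.63 to 0.66, and so rests on sample 39. The causes were not tested. Prom1 passed under neqc in nodules (1.30, adjusted p = 0.019) and aHCC (1.35, adjusted p = 0.0289). In eHCC its call was lost under neqc (1.45, adjusted p = 0.0597), without a detection filter (adjusted p = 0.0697), with either block (0.80, adjusted p = 0.228, for the number range, and adjusted p = 0.230 for sets of 12) and without controls 25 to 27 (adjusted p = 0.0920). No paired analysis was possible because each sample number is used once.

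Dim genes are the limit: Krt7, Prom1 and Spp1 lay near background in most samples, so their folds are compressed.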
